A study of Homo sapiens with 90 samples.

Results

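Gene expression in A673 cells after 24 h in 10 µM fenbuconazole was compared with gene expression in the same cells after 24 h in the vehicle alone. A673 cells derive from an Ewing sarcoma and express the fusion protein EWSR1-FLI1. Fenbuconazole is a triazole fungicide that binds the fungal sterol 14-alpha-demethylase. The members were chosen by their labels and not by any measured value. They were the 3 arrays labelled fenbuconazole at 10 µM and the 3 DMSO arrays that had been normalized with the fenbuconazole arrays, or 6 of the 90 arrays of the series. Both groups held 0.2% DMSO and were grown in serum-containing medium in multiwell plates, and the agent was added once the cells had attached. The same normalization set held 24 more arrays, 3 at each of 8 lower fenbuconazole concentrations between 0.001 and 3 µM, which shared in the estimate of the spread and served as a second reference. Values are log2 intensities per probe set, so that a difference of 1 is a doubling.

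The vehicle arrays carry the word common in their labels, which would make them the same arrays as the vehicle arrays of the other chemicals. From each vehicle column the mean of all 30 columns of its set was subtracted. Vehicle columns with the same number then correlated over probe sets at 0.105 to 0.185 between fenbuconazole and imazalil. Between imazalil and 2,4-D they correlated at 0.867 to 0.878. The fenbuconazole set's own 3 columns were the vehicle reference throughout, and the called genes and the lists with the largest medians are also given against fenbuconazole concentrations below 10 µM, a reference that holds no vehicle array. The medians of the 6 arrays lay between 2.78 and 2.83. The Ewing sarcoma markers CD99, STEAP1, CCND1, PRKCB and NKX2-2 were at or above the 88.2 percentile of 19774 genes. The defining markers of hepatocytes and blood were near the bottom of the scale, with ALB between 2.60 and 2.98 and PTPRC between 2.12 and 2.72 in the 6 arrays. GATA3, a luminal breast marker, lay between 3.99 and 5.05, and its difference of 0.63 did not pass the test (unadjusted p = 0.000325, limma, adjusted p = 0.237). The other 4 luminal markers lay between 2.28 and 3.77, with differences of -0.18 for ESR1, -0.23 for EPCAM, 0.09 for KRT19 and 0.14 for TFF1. The part of GATA3 in any other result was not tested.

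Cells sense a shortage of amino acids, or a stressed endoplasmic reticulum, through kinases that slow translation and let the transcription factor ATF4 accumulate. ATF4 then drives genes for amino acid synthesis, import and tRNA charging, together with regulators such as TRIB3, CHAC1 and ATF3. EGR1 is an immediate early gene that growth factor signals switch on through the ERK kinases and serum response factor. Sterol synthesis is controlled separately, by the SREBP factors, which are released when sterols run low. CYP51A1, the human counterpart of the fungal enzyme that azole fungicides bind, is one of the SREBP targets.

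The 250 bases before the start of 6 genes are shown. EGR1, TRIB3 and PCK2 are shown because they passed the test against DMSO. ASNS, CHAC1 and ATF3 passed it against the lower fenbuconazole concentrations and were picked because they hold one of the motifs searched, so that they do not stand for the other genes that passed. Capitals mark matches to 4 motifs searched on both strands, which were TGATGNAA (bound by ATF4 with a C/EBP partner), TGACGTCA (the cAMP response element), TCACNCCAC (a sterol response element) and the CArG box bound by serum response factor. Sequences are from RefSeq, build GRCh38.p14, at the first start listed for each gene.
EGR1, chr5:138465229-138465478, plus strand: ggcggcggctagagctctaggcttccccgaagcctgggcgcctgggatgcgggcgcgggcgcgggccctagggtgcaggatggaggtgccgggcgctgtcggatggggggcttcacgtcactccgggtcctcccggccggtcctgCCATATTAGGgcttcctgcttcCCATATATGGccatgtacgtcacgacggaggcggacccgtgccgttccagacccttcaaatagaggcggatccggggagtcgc
TRIB3, chr20:381045-381294, plus strand: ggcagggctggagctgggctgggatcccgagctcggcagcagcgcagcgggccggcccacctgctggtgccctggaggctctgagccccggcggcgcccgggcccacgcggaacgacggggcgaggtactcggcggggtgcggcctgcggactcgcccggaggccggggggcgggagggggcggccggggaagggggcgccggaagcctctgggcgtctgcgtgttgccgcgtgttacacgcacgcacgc
PCK2, chr14:24094061-24094310, plus strand: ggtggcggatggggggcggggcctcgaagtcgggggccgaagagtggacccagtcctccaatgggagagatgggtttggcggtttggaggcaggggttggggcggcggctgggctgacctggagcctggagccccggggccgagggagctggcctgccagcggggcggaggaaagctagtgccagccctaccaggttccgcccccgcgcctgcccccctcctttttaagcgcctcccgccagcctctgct
ASNS, chr7:97872409-97872658, minus strand: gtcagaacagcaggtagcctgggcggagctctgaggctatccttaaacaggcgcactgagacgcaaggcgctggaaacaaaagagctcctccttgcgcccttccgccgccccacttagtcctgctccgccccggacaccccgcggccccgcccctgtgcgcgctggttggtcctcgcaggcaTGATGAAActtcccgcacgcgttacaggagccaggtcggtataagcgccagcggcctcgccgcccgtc
CHAC1, chr15:40953221-40953470, plus strand: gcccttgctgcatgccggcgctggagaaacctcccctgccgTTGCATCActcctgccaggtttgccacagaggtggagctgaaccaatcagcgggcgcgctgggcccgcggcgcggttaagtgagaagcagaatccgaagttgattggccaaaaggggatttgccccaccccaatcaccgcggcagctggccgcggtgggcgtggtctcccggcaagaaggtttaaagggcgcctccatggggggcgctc
ATF3, chr1:212565157-212565406, plus strand: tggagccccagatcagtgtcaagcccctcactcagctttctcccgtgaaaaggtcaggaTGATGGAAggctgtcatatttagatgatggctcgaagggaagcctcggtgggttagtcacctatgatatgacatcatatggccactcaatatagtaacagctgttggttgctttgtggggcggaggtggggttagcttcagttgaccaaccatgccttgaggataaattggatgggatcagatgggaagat

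The CArG boxes of EGR1 began at positions -105 and -83, counted from the start. A CArG box was present in 1.29% of 27305 promoters, each from 250 bases before to 50 after the start. TGATGNAA was found at -68 in ASNS, at -191 in ATF3 and, on the opposite strand, at -209 in CHAC1, and in 3.67% of all promoters. Of 18 named genes that passed the test in any of the 3 comparisons described below, 17 had a promoter in the table, and 5 of these (29.4%) held TGATGNAA at the first start listed. Besides ASNS, ATF3 and CHAC1, these were TMEM268, where the match began at -1 and ran across the start, and DLGAP1-AS2, at -201. DLGAP1-AS2 is a noncoding RNA that was dim, with a mean of 3.02 at 10 µM. With every listed start counted, 7 (41.2%) held TGATGNAA, against 4.46% of all genes. These 2 shares were not matched for the number of starts, which ran from 1 to 3 in the genes that passed. More starts give more chances of a match. TRIB3 and PCK2 had none of the 4 motifs in this window. Nor had DDIT4, PTX3, LOX, JDP2, CTH, SQOR or CCK, all at the first start listed. TRIB3 had 3 starts listed, and matches at its other starts are not given here. A match describes these letters only, and was not tested for binding.

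Against DMSO, limma called 4 of 54613 probe sets (0.00732%, adjusted p under 0.05), all lower at 10 µM. They belonged to EGR1 (2 probe sets), TRIB3 and PCK2. A second quantile normalization gave 5 calls, 2 higher and 3 lower. None of the probe sets passed when any 1 replicate number was left out, when replicate 2 of the 10 µM or of the DMSO arrays was left out, or when only the 6 arrays were fitted. Over all probe sets the log2 differences had an SD of 0.157 and ran from -0.87 to 0.97, or from 1.82-fold lower to 1.96-fold higher, and no probe set differed by a doubling. At an unadjusted p under 0.05 there were 4148 probe sets (7.6%), 2018 higher and 2130 lower. Of 19774 genes, each read from its brightest probe set, 37 were higher and 38 lower by at least 0.5. Over all probe sets these counts were 174 and 100, and among the 8202 genes with a mean of at least 5 they were 8 and 12. P-values measured the spread between the arrays of a set. The study's methods describe replicates as separate batches of cells, while the labels give only numbers. As in any bulk measurement, fewer cells of a kind and less RNA per cell cannot be told apart.

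EGR1 encodes a zinc finger transcription factor. Its brightest probe set read 8.6, 8.38 and 8.59 in the DMSO arrays and 7.96, 7.56 and 7.81 at 10 µM. The second read 7.94, 7.92 and 8.10 in DMSO and 7.25, 7.15 and 7.54 at 10 µM. Every treated array lay below every DMSO array at both. EGR1 fell by 0.75 (SE 0.12, adjusted p = 0.029, 1.68-fold) and by 0.67 (SE 0.09, adjusted p = 0.00769, 1.59-fold). The third probe set averaged 6.14 ± 0.01 against 5.39 ± 0.38 (SD, n = 3 each), a difference of -0.75 that did not pass (unadjusted p = 3.32e-05, adjusted p = 0.125).

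TRIB3 encodes a pseudokinase that ATF4 induces and that restrains ATF4 in turn. Its brighter probe set read 7.87, 8.10 and 7.34 in DMSO and 7.0, 7.30 and 7.0 at 10 µM. Groups did not overlap, although DMSO replicate 3 stood close to the treated arrays. TRIB3 fell by 0.67 (SE 0.11, adjusted p = 0.029), a 1.59-fold difference. A second probe set differed by -0.60 (SE 0.16) with overlapping groups and did not pass (adjusted p = 0.324).

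PCK2 encodes the mitochondrial phosphoenolpyruvate carboxykinase, another ATF4 target. The array values were 6.59, 7.17 and 6.15 in DMSO and 6.09, 6.13 and 5.79 at 10 µM. Pair 2 carried the largest difference, -1.05, against -0.50 and -0.35 in the other pairs. PCK2 fell by 0.63 (SE 0.11, adjusted p = 0.0441), or 1.55-fold. DMSO replicates differed more among themselves in PCK2 (SD 0.52) and TRIB3 (SD 0.39) than in EGR1 (SD 0.10 and 0.12). Replicate 2 was the highest of the 3 in all 9 other groups of the set for both genes, and the fit took up such offsets with the replicate number as a block. Without that block none of the 4 probe sets passed, with adjusted p between 0.0632 and 0.572, while the log2 differences stayed the same.

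**Figure D1:**
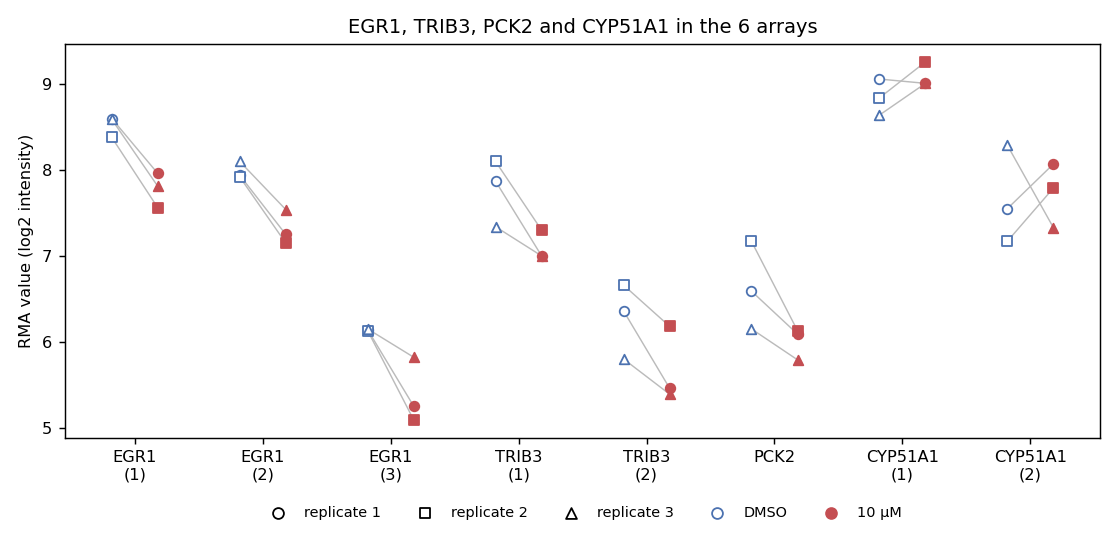
RMA values (log2 intensity, vertical axis) of 8 probe sets in the 3 DMSO arrays (open) and the 3 arrays at 10 µM (filled). Grey lines join arrays with the same replicate number. EGR1 (3 probe sets), TRIB3 (1) and PCK2 do not overlap between the groups, whereas TRIB3 (2) and both CYP51A1 probe sets do.

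The lower concentrations gave a reference of 24 arrays without any vehicle array. The 10 µM arrays enter both comparisons, so the second is not independent of the first. Against the mean of the 8 lower concentrations limma called 21 probe sets (0.0385%), 4 higher and 17 lower. EGR1 fell by 0.70 at each of its 2 called probe sets (adjusted p = 1.67e-05 and 0.000364), TRIB3 by 0.74 (adjusted p = 4.43e-05) and PCK2 by 0.68 (adjusted p = 0.000118). At all of these the 24 lower arrays lay above every array at 10 µM. For the brightest EGR1 probe set they ran from 8.25 to 8.90 with a median of 8.43, for TRIB3 from 7.37 to 8.29 with a median of 7.77, and for PCK2 from 6.15 to 7.18 with a median of 6.61.

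More genes of the ATF4 programme passed in this comparison. DDIT4, an inhibitor of the growth kinase complex mTORC1, fell by 0.56 (adjusted p = 0.000263) against the lower concentrations. CHAC1, which degrades glutathione, fell by 0.59 (adjusted p = 0.00355), and ASNS, the asparagine synthetase, fell by 0.49 (adjusted p = 0.00536). ASNS was the most even of them, with 9.81, 9.80 and 9.80 at 10 µM and between 9.94 and 10.66 in the 24 lower arrays. The AP-1 family repressor JDP2 fell by 0.50 and the stress factor ATF3 by 0.46 (adjusted p = 0.0202 for both). Against DMSO itself none of these 5 passed, although their differences ran the same way, from -0.41 for ATF3 to -0.54 for JDP2.

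Genes outside the ATF4 programme also passed against the lower concentrations. LOX, the lysyl oxidase that cross-links collagen, fell by 0.44 (adjusted p = 0.0118), and PTX3, a secreted pentraxin, by 0.70 (adjusted p = 0.0202). TMEM268, a transmembrane protein gene, fell by 0.58 (adjusted p = 0.00303). SQOR, the mitochondrial sulfide quinone oxidoreductase, rose by 0.46 (adjusted p = 0.0169), and CCK, the neuropeptide cholecystokinin and a gene that EWSR1-FLI1 activates, rose by 0.41 (adjusted p = 0.0202). SQOR read 7.15, 7.17 and 7.26 at 10 µM, and each of the 24 lower arrays was below these. Against DMSO, SQOR differed by 0.34 and CCK by 0.34, and neither passed (adjusted p = 0.399 and 0.351). PTX3 was the least even of the group, with differences of -0.03, -0.49 and -0.73 in the 3 pairs with DMSO. Without the replicate block 2 of the 21 probe sets passed, and 7, 2 and 4 probe sets passed without replicate 1, 2 or 3.

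The next lower concentration gave a further reference, again with the same 10 µM arrays. Against 3 µM limma called 4 probe sets (0.00732%), all lower, which were PCK2 (-0.98, SE 0.11, adjusted p = 8.41e-05), TRIB3 (-0.90, SE 0.11, adjusted p = 0.00029), DDIT4 (-0.71, SE 0.09, adjusted p = 0.000852) and ASNS (-0.64, SE 0.10, adjusted p = 0.0168). None of them passed without the replicate block, on the 6 arrays alone, or without replicate 1 or replicate 3, and 1 passed without replicate 2. All 4 had a higher mean at 3 µM than in DMSO, a difference that was not tested. They were picked by the comparison with 3 µM, which favours genes that read high there. PCK2 had means of 6.64 in DMSO, 6.98 at 3 µM and 6.0 at 10 µM. TRIB3 had 7.77, 8.0 and 7.10. EGR1 did not pass against 3 µM (-0.49, adjusted p = 0.0885, and -0.57, adjusted p = 0.184).

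**Figure D2:**
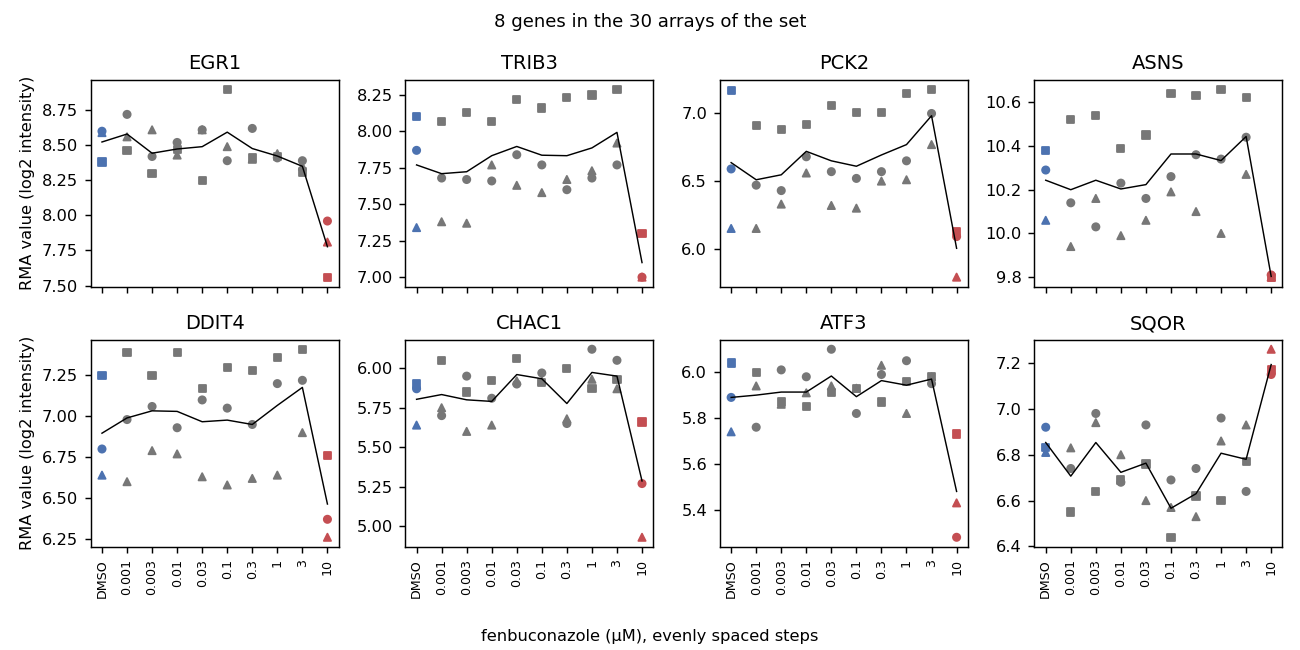
RMA values (log2 intensity, vertical axes, not starting at 0) of 8 genes in all 30 arrays of the fenbuconazole set against concentration (horizontal axes, evenly spaced). Points are arrays, with circles, squares and triangles for replicates 1, 2 and 3, and lines join group means. Blue is DMSO, grey the 8 lower concentrations and red 10 µM, where 7 genes have their lowest group mean and SQOR its highest.

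The genes next in order of p against DMSO did not pass the test, and their values are given as measured. Among genes with a mean of at least 4 and no overlap between groups, the smallest unadjusted p on the higher side belonged to SEC22C, a secretory pathway gene, at 0.66 (adjusted p = 0.125). SLC6A6, the taurine transporter, was at 0.42 (7.07, 6.87 and 6.92 in DMSO, 7.40, 7.39 and 7.31 at 10 µM). ARG2, the mitochondrial arginase, was at 0.55 (6.93, 6.67 and 6.70 against 7.45, 7.42 and 7.09). INSIG1, which holds SREBP in the endoplasmic reticulum and is itself an SREBP target, was at 0.57 (5.37, 5.52 and 5.35 against 5.82, 6.31 and 5.82). The other 11 genes on this side were MCM3AP-AS1, PRDM15, EFNA4, DUSP22, CAMSAP2, ZNF281, NUFIP2, PALM3, ADAP1, OLMALINC and ATP2C1, with differences from 0.39 to 0.66. Of these 15 genes, SLC6A6, ARG2, INSIG1, PRDM15, DUSP22 and PALM3 differed by at least 0.26 from the lower concentrations as well, whereas ATP2C1 differed by 0.02 and SEC22C by 0.14.

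On the lower side the list began with EGR1, TRIB3 and PCK2, and the next 12 did not pass. LINC00326, a long noncoding RNA, read 5.37, 5.56 and 5.63 in DMSO and 5.03, 5.03 and 4.61 at 10 µM, and it fell against the lower concentrations (-0.49, adjusted p = 0.0437). ASS1, the argininosuccinate synthase of arginine synthesis, read 5.82, 6.31 and 6.03 in DMSO and 5.58, 5.41 and 5.54 at 10 µM. Its difference was -0.54 (adjusted p = 0.22). ARG2 uses arginine and ASS1 acts in its synthesis. Their opposite signs follow from being named on opposite sides, and a link between them was not tested. G6PC3, a glucose-6-phosphatase, was among the most even, with 7.26, 7.38 and 7.25 against 6.94, 6.91 and 6.94. BACE1, the beta-secretase, was at -0.38, SLC35D1, a nucleotide sugar transporter, at -0.40 and UBALD2 at -0.58. KIF9, TRIM69, LRRC37A16P, TMEM268, JDP2 and ASNS completed the list, with differences from -0.59 to -0.34. Against the lower concentrations TMEM268, JDP2 and ASNS passed as well. The others were smaller there, with LRRC37A16P at -0.217, KIF9 at -0.232, BACE1 at -0.185, G6PC3 at -0.237 and TRIM69 at -0.244. ASS1 was at -0.418, UBALD2 at -0.362 and SLC35D1 at -0.32.

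Several probe sets can read the same gene. Of 5463 genes with at least 3 probe sets, 47 had all of them on one side and at least 2 at an unadjusted p under 0.05, 25 higher and 22 lower. EGR1 led with a mean of -0.725 over 3 probe sets, 2 of them past the adjusted threshold. INSIG1 followed with 0.39 over 3 probe sets, from 0.24 to 0.57. TXNIP, which blocks glucose uptake, had -0.36 over 3, from -0.41 to -0.33. RPS6KA2, a kinase downstream of ERK, had -0.34, LOX -0.33 and ETV5, an ETS factor that ERK signalling induces, -0.33 over 4. PTPRF, GYG2, ODF2L, SKIC3 and SAV1 had means from 0.28 to 0.33, and ZNF688 -0.31.

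The whole comparison was also read through 72 gene lists of 1602 measured genes. They were chosen with earlier results of these data known and are described with no test. The median over all 19774 genes was -0.005, with 51.7% of genes lower. Of all genes, 6.21% were lower and 5.02% higher without overlap between the groups, and 4.18% were lower and 3.28% higher at an unadjusted p under 0.05. List medians were small, with 56 of 72 under 0.05 in size and 7 at 0.1 or more. In 17 of the 72 lists the mean of the members had the same sign in all 3 replicate pairs. Among the 19774 single genes, 2270 were higher and 2848 lower in all 3 pairs.

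**Figure D3:**
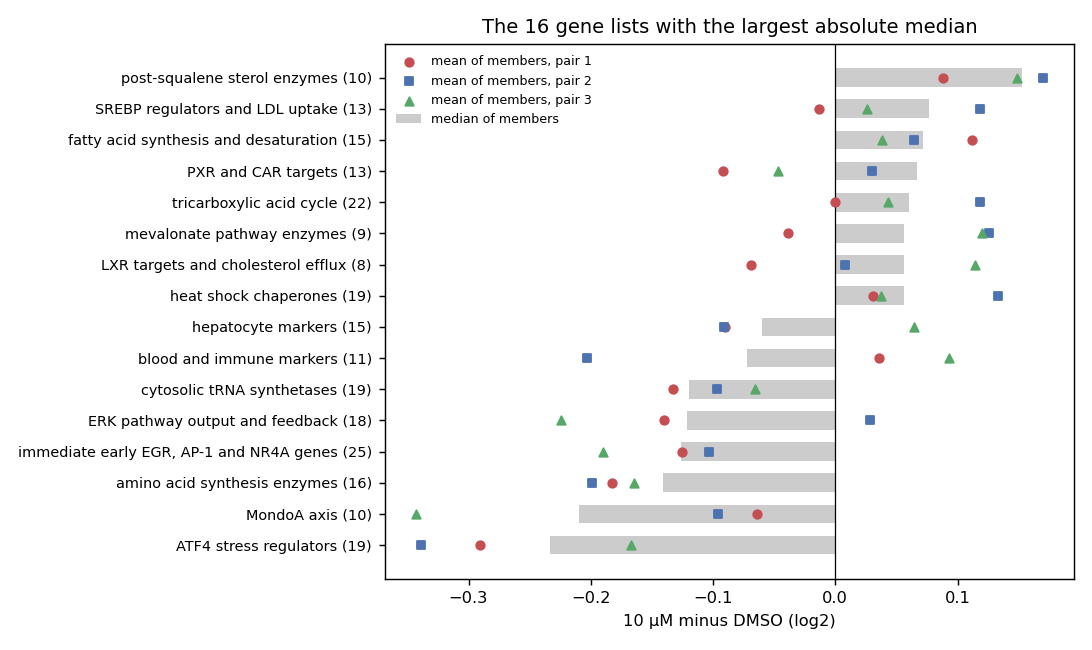
Bars give the median log2 difference (10 µM minus DMSO, horizontal axis) over the members of the 16 lists with the largest absolute median, with the number of measured genes in parentheses. Points give the mean of the members in each same-numbered pair of arrays. The ATF4 stress regulators stand lowest at -0.23 and the post-squalene sterol enzymes highest at 0.15, with the 3 points of each on one side of 0.

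The stress regulators that ATF4 controls had the lowest median, -0.23. Of 19 measured, 18 were lower and 7 were lower without overlap (36.8%, against 6.21% of all genes). Only TRIB3 passed the test against DMSO, and 11 had an unadjusted p under 0.05. The mean of the list was -0.29, -0.34 and -0.17 in pairs 1 to 3. STC2, a secreted glycoprotein, differed by -0.53 (SE 0.15), CHAC1 by -0.52 (SE 0.12) and JDP2 by -0.54 (SE 0.12). ATF4 itself differed by -0.07 (SE 0.08), with a mean of 10.86 in DMSO and 10.79 at 10 µM. Against the lower concentrations the median was -0.20 and 5 members passed, and against 3 µM it was -0.27.

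The enzymes of amino acid synthesis and one-carbon metabolism had a median of -0.14, with 13 of 16 lower and 5 lower without overlap (31.2%). PCK2 passed the test. ASNS differed by -0.44 (SE 0.10), CTH, the cystathionine gamma-lyase, by -0.41 (SE 0.14) and PSAT1, of the serine pathway, by -0.34 (SE 0.12), with no overlap at these probe sets. A second CTH probe set fell against the lower concentrations (-0.55, adjusted p = 0.0257). Against DMSO its groups overlapped, with pairs of -0.92, -0.28 and 0.08, and its difference of -0.37 (adjusted p = 0.493) was -0.099 without replicate 1. PHGDH and SHMT2, of the same serine and one-carbon pathway, were at -0.04 and 0.09. The pair means of the list were -0.18, -0.20 and -0.17. Its median was -0.15 against the lower concentrations and -0.18 against 3 µM.

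Cytosolic tRNA synthetases, which charge tRNAs with amino acids and many of which ATF4 controls, had a median of -0.12. Of 19, 15 were lower and 5 without overlap (26.3%), and none passed (3 lower at an unadjusted p under 0.05). MARS1 was at -0.32 (SE 0.10), WARS1 at -0.26 (SE 0.09), CARS1 at -0.19 (SE 0.08) and FARSA at -0.19 (SE 0.10). The median was -0.08 against the lower concentrations and -0.12 against 3 µM, and against DMSO it was -0.056 without DMSO replicate 1. The mitochondrial tRNA synthetases were split, with 8 of 16 lower and a median of -0.01. Of 15 amino acid transporters 11 were lower, with a median of -0.03, and none passed. Only 1 was lower without overlap, SLC7A11 (6.7%, close to the 6.21% of all genes). That gene, the cystine importer, differed by -0.35 (SE 0.11, unadjusted p = 0.00328).

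**Figure D4:**
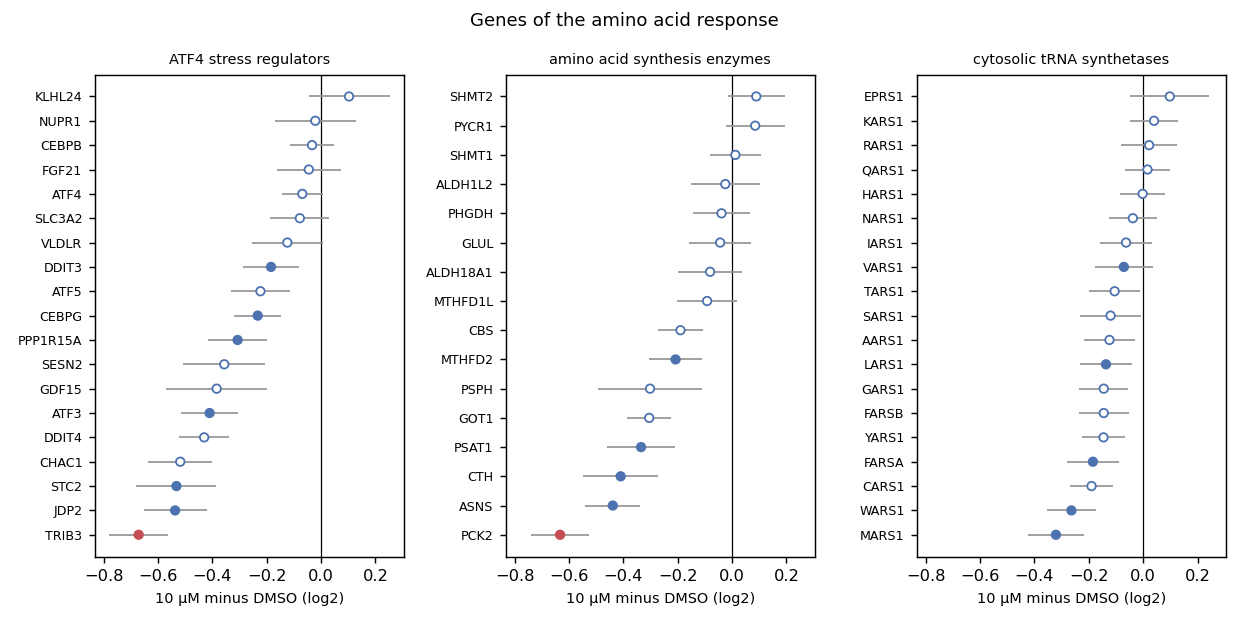
Log2 differences (10 µM minus DMSO, horizontal axes) of every measured gene in 3 lists, with the standard error of limma as bars. Red marks genes past the adjusted threshold, filled blue points genes without overlap between the groups, and open points genes with overlap. Most points of each list lie left of 0, with TRIB3 and PCK2 the lowest of their lists.

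Genes of the unfolded protein response, whose PERK arm can raise ATF4, were evenly split. Of 24 measured, 12 were higher and 12 lower, with a median of 0.01. Heat shock chaperones were on the higher side in 17 of 19, by little (median 0.06). HSPA1A, an inducible HSP70, was at 0.27 (SE 0.12), the co-chaperone DNAJB1 at 0.21 (SE 0.11), and HSF1, the factor that drives them, at -0.25 (SE 0.11). HSPB8 was at -0.25 (SE 0.16). None passed the test, and 3 genes of this list were higher without overlap (15.8%, against 5.02%).

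Immediate early genes had a median of -0.13, with 18 of 25 lower and 6 lower without overlap (24.0%). EGR1 passed, and ATF3 is counted here as well. EGR4, a relative of EGR1, was at -0.52 (SE 0.14, pairs -0.55, -0.53 and -0.48) at a low level of 3.90 in DMSO. EGR3 was at -0.35 (SE 0.17). FOS, the AP-1 subunit, differed the other way at 0.32 (SE 0.17, unadjusted p = 0.0656), with -0.14, 0.31 and 0.79 in the pairs. The list median was smaller against the other references, -0.09 against the lower concentrations and -0.06 against 3 µM. Outputs and feedback inhibitors of the ERK pathway had a median of -0.12, with 15 of 18 lower. ETV5 was at -0.39 (SE 0.11), SPRY2 at -0.33 (SE 0.14), ETV4 at -0.32 (SE 0.17) and SPRY1 at 0.30 (SE 0.15), and none passed (2 lower at an unadjusted p under 0.05). Pair 2 did not share the direction of this list, with pair means of -0.14, 0.03 and -0.22. The ERK list median was -0.18 against the lower concentrations and -0.16 against 3 µM, and against DMSO it was -0.067 without DMSO replicate 3.

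The transcription factor MondoA senses glucose phosphates and drives TXNIP and ARRDC4. The list had a median of -0.21 with 8 of 10 lower, and none passed. Of the 10, 2 were lower without overlap (20.0%, against 6.21% of all genes). At an unadjusted p under 0.05, 3 were lower, against 4.18% of all genes. ARRDC4 was at -0.48 (SE 0.15) and TXNIP at -0.33 (SE 0.12), followed by KLF10 at -0.28 (SE 0.15) and PFKFB3, a glycolytic regulator, at -0.22 (SE 0.09). Pair 3 had the largest list mean, -0.34, against -0.06 and -0.10, and without replicate 3 the median was -0.086. It was -0.17 against the lower concentrations and -0.15 against 3 µM.

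Sterol enzymes after squalene were the list furthest on the higher side, with a median of 0.15 and 8 of 10 higher. Of these, 2 were higher without overlap (20.0%), HSD17B7 and SC5D, and none passed the test (2 higher at an unadjusted p under 0.05). CYP51A1 was read by 2 probe sets. The brighter one read 9.06, 8.84 and 8.64 in DMSO and 9.01, 9.26 and 9.01 at 10 µM, a difference of 0.25 with a 95% interval from -0.01 to 0.50 (adjusted p = 0.672). The other read 7.55, 7.17 and 8.29 in DMSO and 8.07, 7.79 and 7.33 at 10 µM, a difference of 0.06 with an interval from -0.46 to 0.59. Its pairs were 0.53, 0.62 and -0.96, and its sign changed when single arrays were left out. LSS, the lanosterol synthase just before CYP51A1, was at 0.24 (SE 0.09), NSDHL at 0.20 (SE 0.13) and HSD17B7 at 0.20 (SE 0.10). The list median was 0.17 against the lower concentrations and 0.12 against 3 µM. The 2 CYP51A1 probe sets had opposite signs against the lower concentrations, 0.11 for the brighter and -0.11 for the other, and against 3 µM they were at 0.07 and -0.22.

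The mevalonate pathway that feeds sterol synthesis had a median of 0.06, with 6 of 9 higher. HMGCS1, its entry enzyme, was at 0.29 (SE 0.17), IDI1 at 0.20 (SE 0.09), ACAT2 at 0.17 (SE 0.11) and MVD at -0.17 (SE 0.20). SREBP regulators and LDL uptake genes had a median of 0.08 with 9 of 13 higher, where the brightest INSIG1 probe set was at 0.24 (SE 0.14) and MBTPS1, a protease that cuts SREBP, at -0.17 (SE 0.09). Fatty acid synthesis and desaturation genes had 0.07 with 11 of 15 higher, PNPLA3 leading at 0.53 (SE 0.19) and FADS1 and FADS2 both at 0.15. None of the genes in these 3 lists passed the test, and 1, 0 and 1 of them were higher at an unadjusted p under 0.05.

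**Figure D5:**
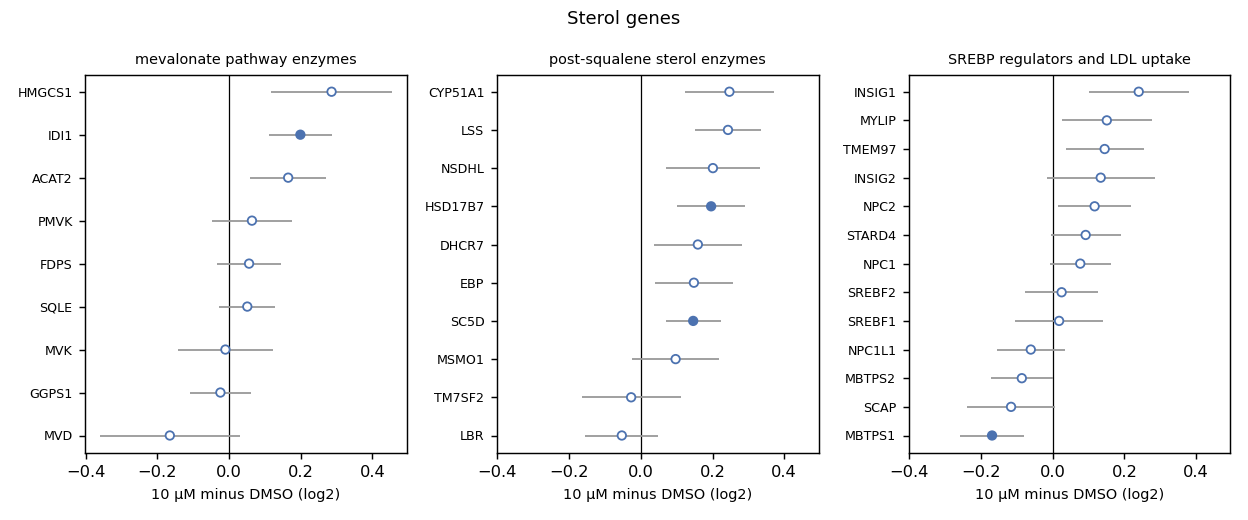
Log2 differences (10 µM minus DMSO, horizontal axes) of every measured gene in 3 sterol lists, with the standard error of limma as bars. Filled points are genes without overlap between the groups and open points genes with overlap, and no gene passed the adjusted threshold. Points of the post-squalene list lie right of 0 except TM7SF2 and LBR.

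Azoles are known to engage xenobiotic sensors in liver. Of 13 measured targets of PXR and CAR, 8 were higher and 5 lower (median 0.07), and none passed (0 higher and 1 lower at an unadjusted p under 0.05). NR1I3, which encodes CAR, had the smallest p of the list at a level near the bottom of the scale (3.15 in DMSO and 2.47 at 10 µM, unadjusted p = 8.42e-05, adjusted p = 0.192), and most of that difference came from pair 2 (-1.32, against -0.33 and -0.39). Of 11 aryl hydrocarbon receptor targets 5 were higher and 6 lower, and none had an unadjusted p under 0.05. NRF2 targets had a median of 0.02 over 21 genes, and metallothioneins and zinc transporters 0.02 over 11. LXR targets had 0.06 over 8. Most genes of the PXR and CAR list were dim, and 2 of the 13 had a mean of at least 5.

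Cell growth and housekeeping lists had medians near 0. The genes of G1/S and DNA replication had -0.01 over 38, those of G2/M and mitosis 0.00 over 38 and p53 targets -0.02 over 24. Cytosolic ribosomal proteins had 0.00 over 53, complex I of the respiratory chain -0.03 over 30 and glycolysis -0.01 over 22. The tricarboxylic acid cycle had 0.06, with 18 of 22 higher and none at an unadjusted p under 0.05. Targets that EWSR1-FLI1 activates had a median of 0.02 over 27 genes, 14 higher and 13 lower. At an unadjusted p under 0.05, 5 were higher (against 3.28% of all genes), CCK among them, and 0 lower. Without overlap 2 were higher (7.4%, against 5.02% of all genes). The pair means were 0.09, 0.11 and -0.04, and the median was 0.01 against the lower concentrations. Genes the fusion represses had a median of -0.03 against DMSO over 21, LOX among them. Marker lists of other cell types had medians of -0.02 (luminal breast), -0.06 (hepatocyte) and -0.07 (blood), with 1, 1 and 0 genes higher and 0, 2 and 0 lower at an unadjusted p under 0.05.

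The spread of the differences varied with the level of a gene, but not in step with it. Among the 8475 genes with a mean under 3 the SD was 0.152, the median standard error 0.128 and the share at an unadjusted p under 0.05 was 7.7%. Among genes with a mean of 3 to 5 the differences had an SD of 0.191 and 9.8% had an unadjusted p under 0.05. At a mean of 9 or more the SD was 0.089 and the share 3.1%. The median standard error was 0.152 and 0.089 in these last classes. The replicate pairs also differed in their overall tilt. Among genes with a mean of at least 5, 56.4% were lower in pair 1, 43.2% in pair 2 and 57.9% in pair 3. For EGR1, TRIB3 and PCK2 all 3 pairs were lower.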

How the data were processed

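RNA of A673 cells was read on Affymetrix high-throughput U133 Plus PM arrays. The authors deposited log2 values per probe set from RMA in Partek (versions not given in the sources used here), that is background-corrected, quantile-normalized and summarized values. The 30 columns of the fenbuconazole set had been normalized apart from the other chemicals. Quantile normalization gives the arrays of a set nearly the same distribution, so a shift shared by most genes would not be seen. Manufacturer controls (102) were left out and 54613 probe sets tested, of which 40914 had 1 symbol in the platform annotation, 864 several and 12835 none. Genes were named from probe sets with 1 symbol, and lists used the brightest probe set of a gene.

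limma 3.58.1 in R 4.3.3 was fitted over the 30 columns, with concentration as group and replicate number as a block, and p-values were adjusted by Benjamini-Hochberg over all probe sets (threshold 0.05). The fit left 18 residual degrees of freedom, and 25.8 with the prior. The contrasts set 10 µM against DMSO, against the mean of the other 8 concentrations and against 3 µM. The code was tested on simulated data. The number of arrays limits the precision.

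The study's methods describe 3 experiments on separate batches of cells, but no label ties a replicate number to an experiment. The block was part of how the comparison was defined.

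The comparison, the lists and the rule for named genes were chosen with earlier results of these data known. Named were the probe sets past the threshold (at most 15 per contrast, by p), the 15 genes per direction with the smallest p, a mean of at least 4 and no overlap, the first 12 genes with several concordant probe sets, up to 4 members with the largest differences in each list described, and CYP51A1, EGR1, TRIB3 and PCK2. ATF4, PHGDH, SHMT2, SLC7A11, DNAJB1, FOS, SC5D, TM7SF2 and LBR were named after their values were seen. The markers NR0B1 and HNF4A had no probe set with 1 symbol. Promoters came from RefSeq.

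Alternatives were a fit without the block, a fit on the compared arrays alone, dim probe sets removed, the brightest probe set for each gene, a trended and robust prior, a second quantile normalization, equal array medians, array weights, the mean over all probe sets of a gene (lists), and the omission of each replicate number or array. Figures were drawn with matplotlib 3.10.9 in Python 3.11.15.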

Additional observations from a re-analysis of the deposited data

How the results depend on the processing

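The calls depended on the replicate block. Without it, 0 probe sets passed against DMSO (3823 at an unadjusted p under 0.05), 2 against the other 8 concentrations and 0 against 3 µM (2544 at an unadjusted p under 0.05), in place of 4, 21 and 4 in limma. Deviations from group means correlated at 0.042 on average between arrays sharing a number and at -0.021 between others. Single pairs with the same number ran from -0.138 to 0.251, the 3 pairs of DMSO and 10 µM had -0.014, 0.051 and -0.079, and 24 of 30 arrays were closest to one with their own number. Most arrays were thus nearest to one with their own number, although the correlations were weak. The 3 pairs of DMSO and 10 µM are not shown to be matched by these values.

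The fit on the compared arrays alone, with the block, called 0 against DMSO and 0 against 3 µM. Array weights gave 1 against DMSO and 8 against 3 µM. The trended and robust prior gave 38 against the other 8 concentrations and 14 against 3 µM, where removing dim probe sets gave 11 and the brightest probe set per gene 7. Leaving out a replicate number or a single array gave 0 to 7 calls against DMSO, 2 to 17 against the other 8 concentrations and 0 to 6 against 3 µM. Against DMSO there were 0 calls without any 1 replicate number, without replicate 2 of the 10 µM arrays and without DMSO replicate 2. There were 2 without DMSO replicate 1 and 7 without DMSO replicate 3. Against the other 8 concentrations there were 9 without replicate 2 and 8 without replicate 3 of the 10 µM arrays. The causes were not tested.

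The dimmer CYP51A1 probe set (0.063) turned to -0.045 with array weights, and ran from -0.217 to 0.574 when a replicate number or array was left out. Over 48 genes or probe sets and 794 settings, 748 kept their direction and side of the threshold, and 39 kept only the direction. All 39 were losses of the probe sets called against DMSO, since the other probe sets had not passed in the main fit. The called probe sets passed in 9 of 16 settings (EGR1, second), 6 of 17 (EGR1, brightest), 7 of 17 (TRIB3) and 6 of 17 (PCK2). In 1 setting a probe set passed newly (ASNS, adjusted p = 0.0281 with the trended and robust prior). In 6 settings the direction changed, all for that CYP51A1 probe set. The 7 lists with a median of at least 0.1 in size kept their sign in all 16 settings. The cut was set on the medians of these same arrays. Fits without the block and on the compared arrays alone leave the log2 differences unchanged, so those settings could not alter a sign. Medians moved by at least the SD of the 3 pair means in 5 settings for amino acid synthesis (SD 0.017). The count was 4 for cytosolic tRNA synthetases (SD 0.033), 1 for ATF4 stress regulators (SD 0.089) and 0 for the others. The ATF4 stress regulators ran from -0.341 to -0.181, MondoA targets from -0.295 to -0.086, amino acid synthesis from -0.191 to -0.127, immediate early genes from -0.161 to -0.09, the ERK list from -0.154 to -0.067, cytosolic tRNA synthetases from -0.14 to -0.056 and post-squalene enzymes from 0.121 to 0.192. The tRNA synthetases were also at -0.063 with the mean over all probe sets of a gene. The values used carry no background measure, so no limit of detection was set for dim genes.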
